A study of Homo sapiens with 4 samples.

Results

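PLOD2, P4HA1 and P4HA2 encode hydroxylases that modify collagen in the endoplasmic reticulum before it is secreted, and the genes were followed here through every alternative splicing event that carried their names. These came to 68 of the 121269 events in the 5 deposited tables, of which 50 were skipped exon events and 18 were events of mutually exclusive exons, while the tables of retained introns and of alternative 5′ and 3′ splice sites held 0. The events were drawn from RNA-seq of U87MG, an established glioblastoma line whose cell type the labels give as likely glioblastoma. The cells were transfected, by lipofection, with 2.5 µM of RBFOXi, a modified RNA oligonucleotide that carries copies of the motif bound by the RBFOX splicing factors and acts as a decoy for them, or with 2.5 µM of SCRM, a control oligonucleotide with a scrambled sequence. Each group had 2 libraries. RBFOXi replicate 1 was labelled as transfected with cy5-RBFOXi, and no dye was named for the other 3 libraries. The comparison was RBFOXi against SCRM. No untransfected cells were analysed here, so what both groups share by transfection is common to all values below. According to the study's methods the replicates were biologically independent.

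Lysyl hydroxylases turn lysine residues of collagen into hydroxylysine, and the enzyme encoded by PLOD2 acts on the telopeptides at the ends of the chains, where hydroxylysine sets the kind of cross-link that forms between collagen molecules. The PLOD2 transcript is made in a long and a short form, which differ by 1 alternative exon. P4HA1 and P4HA2 encode catalytic alpha subunits of prolyl 4-hydroxylase, which form the enzyme together with the beta subunit P4HB and give the hydroxyproline that stabilises the collagen triple helix. Each of the 2 alpha subunit genes carries a pair of neighbouring exons that are used in place of each other. RBFOX proteins bind UGCAUG in introns, and in general an exon is included more when they bind downstream of it and less when they bind upstream of it.

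All 3 genes lie on the minus strand, and the coordinates are those of hg19 (GRCh37). The exons on which the values below turn are printed from the GRCh37 genome, 5′ to 3′ in the sense of the transcript. The alternative exon of PLOD2 is chr3:145795649-145795711, 63 nt and hence a whole number of codons. It was wholly coding in the 7 of 12 coding transcripts of PLOD2 in GENCODE that contained it, where it was exon 14 in the first of them listed.
PLOD2 63 nt exon: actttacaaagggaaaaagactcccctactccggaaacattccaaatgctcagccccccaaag
The pair of P4HA1 lies at chr10:74804739-74804809 for the 5′ exon and chr10:74803645-74803715 for the 3′ exon, 71 nt each, with an intron of 1023 nt between them. The 5′ exon was in 2 of 5 coding transcripts and the 3′ exon in 3, and each was exon 9 of the first of these transcripts. In a global alignment they were identical at 46 of 72 columns, 63.9%, and capitals mark the bases that differ or face a gap.
P4HA1 5′ exon of the pair: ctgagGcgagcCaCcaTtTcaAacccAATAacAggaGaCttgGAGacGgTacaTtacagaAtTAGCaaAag
P4HA1 3′ exon of the pair: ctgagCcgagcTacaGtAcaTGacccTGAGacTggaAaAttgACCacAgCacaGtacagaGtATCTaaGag
The pair of P4HA2 lies at chr5:131534014-131534073 for the 5′ exon of 60 nt and chr5:131533899-131533964 for the 3′ exon of 66 nt, separated by an intron of only 49 nt. The 5′ exon was in 4 of 15 coding transcripts and the 3′ exon in 3. They were identical at 38 of 68 columns, 55.9%, with capitals used in the same way.
P4HA2 5′ exon of the pair: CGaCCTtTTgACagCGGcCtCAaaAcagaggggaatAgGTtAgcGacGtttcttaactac
P4HA2 3′ exon of the pair: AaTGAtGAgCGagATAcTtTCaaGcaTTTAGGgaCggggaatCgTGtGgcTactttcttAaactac

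For each event the authors deposited counts of reads with the exon (inclusion) and without it (skipping) in each library. PSI, the proportion spliced in, runs from 0 to 1 and was computed from these counts divided by the effective length of each form. For a mutually exclusive pair, the share given is that of the exon lying 5′ in the transcript, against the sum of both exons. A difference is the mean with RBFOXi less the mean with SCRM. The 3 genes were chosen by PSI and by differences in PSI seen earlier in this same comparison, so their values are descriptions. Whether a member passed the thresholds of the fit across all events is given once, also as a description, since the choice of the genes used the same values.

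The alternative exon of PLOD2 was skipped more often in the RBFOXi libraries. Inclusion was counted 3017 and 2207 times in RBFOXi replicates 1 and 2, and skipping, the direct joining of the upstream to the downstream exon, 883 and 877 times. In SCRM replicates 1 and 2 inclusion was counted 1022 and 2913 times and skipping 44 and 183 times. PSI was therefore 0.724 and 0.659 with RBFOXi against 0.947 and 0.924 with SCRM, so that both RBFOXi libraries lay below both SCRM libraries. The means were 0.692 ± 0.0460 and 0.936 ± 0.0159 (SD, n = 2 each), a difference of -0.244. In RNA of a whole culture, a shift in every cell and a larger shift in some of the cells cannot be told apart.

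**Figure D1:**
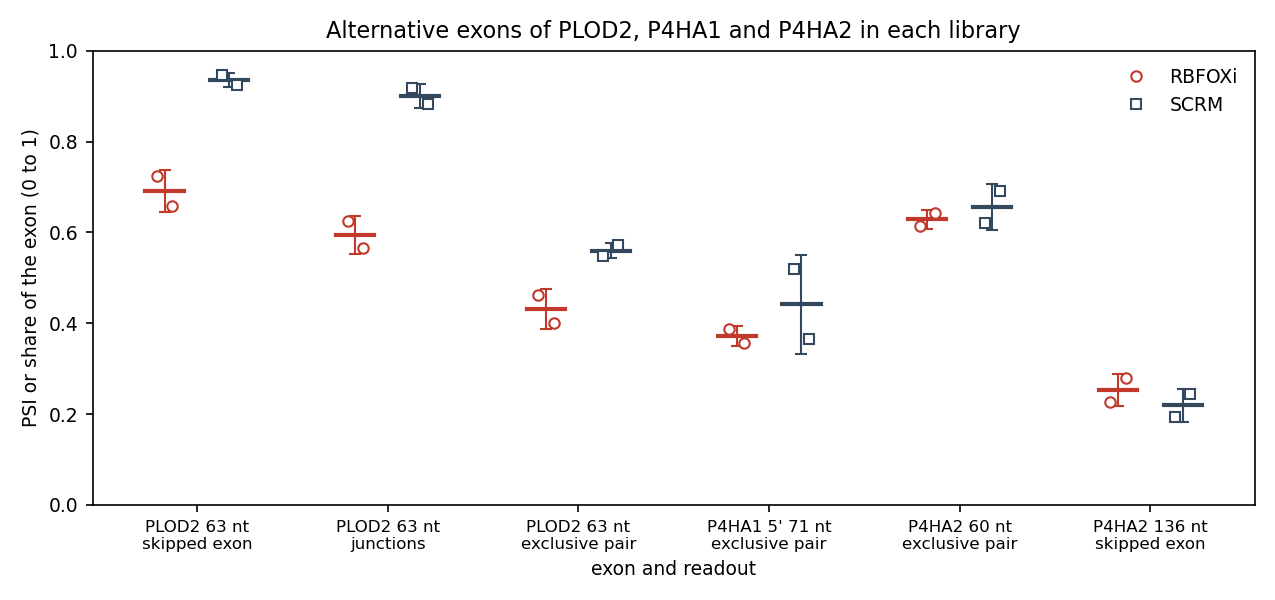
PSI or exon share (y axis, 0 to 1) of alternative exons of PLOD2, P4HA1 and P4HA2, by exon and readout (x axis), with circles for the RBFOXi libraries, squares for the SCRM libraries, thick bars for group means and thin bars for 1 SD (n = 2). The PLOD2 junction readout is a share of raw reads, not divided by effective length. In the readouts plotted, the groups lie apart for the PLOD2 63 nt exon and overlap for the exons of P4HA1 and P4HA2.

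The 63 nt exon is shorter than the sequenced reads, so its inclusion counts come from reads on both of its junctions. Here 4 overlapping PLOD2 events made it possible to isolate the junction to the downstream exon. The upstream exon of 142 nt can be joined to the 63 nt exon or directly to the downstream exon of 114 nt, and a further exon of 66 nt follows. Subtracting events that share their other parts left 1468 and 1142 reads on the junction from the 63 nt exon to the downstream exon in the RBFOXi libraries and 498 and 1370 in the SCRM libraries. A second subtraction, from the events of the 114 nt exon, gave the same numbers in each of the 4 libraries (difference 0). Both subtractions draw on the same counted reads, so this checks the arithmetic and is not independent support. As raw reads set against the skipping junction, they put the skipped share at 37.6% and 43.4% with RBFOXi and at 8.12% and 11.8% with SCRM. The share of the inclusion junction was 0.595 ± 0.0416 against 0.900 ± 0.0259 (SD, n = 2 each), a difference of -0.305. Unlike PSI, this share was not divided by effective length, which was 112 nt for both inclusion junctions together and 86 nt for skipping. Its difference is therefore on another scale than the -0.244 of PSI and does not show a larger shift. In raw reads the inclusion junction still outnumbered the skipping junction in both RBFOXi libraries.

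**Figure D2:**
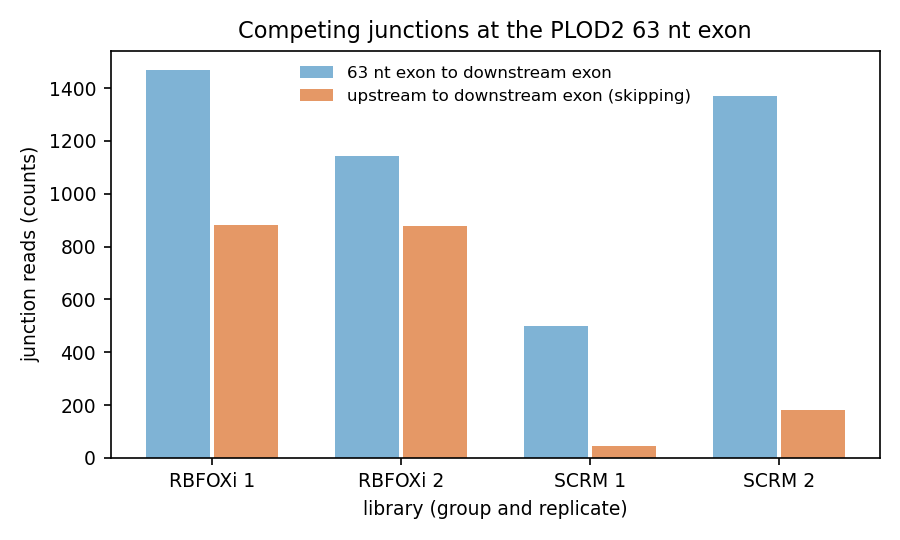
Reads (y axis, counts) on the junction from the PLOD2 63 nt exon to the downstream exon and on the junction that skips the 63 nt exon, per library (x axis). Skipping reads are 883 and 877 in the RBFOXi libraries and 44 and 183 in the SCRM libraries.

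Skipping of the 63 nt exon together with the 114 nt exon was rare. The junction from the upstream exon to the 66 nt exon had 12 and 7 reads with RBFOXi and 0 and 1 with SCRM, and PSI of the 63 nt exon in that event was 0.989 and 0.991 against 1.0 and 0.999, a difference of -0.00974. The 114 nt exon itself was near full inclusion when flanked by the 63 nt exon, with PSI of 0.998, 1.0, 1.0 and 0.999 in RBFOXi 1, RBFOXi 2, SCRM 1 and SCRM 2. The choice at this place in PLOD2 was thus almost wholly between a transcript with and a transcript without the 63 nt exon.

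The same exon looked different in the table of mutually exclusive exons. There it was paired with the 114 nt exon, although the 2 follow each other in nearly all transcripts that hold the 63 nt exon. Its counts were 1551 and 1065 with RBFOXi and 524 and 1544 with SCRM, against 3363, 2992, 807 and 2162 for the 114 nt exon in the same order of libraries. Its share was 0.463 and 0.400 with RBFOXi and 0.548 and 0.572 with SCRM, a difference of -0.129. The direction was that of the skipped exon event, but the SCRM libraries lay near 0.56 in this table where the skipped exon event put them above 0.92. A further event paired the 114 nt exon with the 66 nt exon behind the upstream exon of 142 nt, so that reads skipping the 63 nt exon counted for the 114 nt exon. The share of the 114 nt exon was 0.164 and 0.186 with RBFOXi and 0.0775 and 0.115 with SCRM, higher by 0.0788. With the 63 nt exon as the upstream flank in place of the 142 nt exon, the same pair gave 0.195 and 0.195 with RBFOXi and 0.189 and 0.232 with SCRM, and the groups overlapped.

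The other exons of PLOD2 showed little skipping. Of the 18 skipped exon events of the gene, 9 passed the count filter, which asked for 5 counts or more per library, 20 on average, and 4 counts of either form. Apart from the 63 nt exon, the largest difference among them was that of a 137 nt exon at chr3:145838899-145839035, with PSI of 0.955 and 0.967 with RBFOXi and 1.0 and 0.990 with SCRM, a difference of -0.0341 that rested on 11, 6, 0 and 2 skipping reads. In another event of this exon, with a different flanking exon, the difference was -0.000876. The 3 remaining pairs of PLOD2 in the table of mutually exclusive exons joined neighbouring exons of near full inclusion, and the groups overlapped in each. The 66 nt exon against the next exon of 105 nt gave shares of 0.274 and 0.281 with RBFOXi and 0.273 and 0.280 with SCRM. The 102 nt exon against the 126 nt exon gave 0.510 and 0.530 against 0.511 and 0.541, and the 126 nt exon against the 122 nt exon gave 0.575 and 0.604 against 0.538 and 0.602.

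The pair of P4HA1 was read by the table of mutually exclusive exons, and not by that of skipped exons. The 5′ exon was counted 981 and 585 times with RBFOXi and 633 and 609 times with SCRM, and the 3′ exon 1546, 1053, 588 and 1061 times. The share of the 5′ exon was 0.388 and 0.357 with RBFOXi and 0.518 and 0.365 with SCRM, which gave means of 0.373 ± 0.0220 and 0.442 ± 0.109 (SD, n = 2 each) and a difference of -0.0689. SCRM replicate 1 stood above the other 3 libraries, SCRM replicate 2 lay between the RBFOXi libraries, and without SCRM replicate 1 the difference was 0.00800. In the table of skipped exons each exon of the pair was set only against the junction that leaves out both, which had 1, 3, 4 and 5 reads in RBFOXi 1, RBFOXi 2, SCRM 1 and SCRM 2. PSI was accordingly 0.998, 0.992, 0.991 and 0.988 for the 5′ exon and 0.999, 0.996, 0.990 and 0.993 for the 3′ exon. Both RBFOXi libraries lay above both SCRM libraries in these readouts, by 0.00615 and 0.00590 on average. These were values as high as those of constitutive exons, while the mean share of the 5′ exon within the pair was 0.407 over the 4 libraries.

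The pair of P4HA2 behaved in the same way. The 60 nt exon was counted 740 and 516 times with RBFOXi and 842 and 577 times with SCRM, and the 66 nt exon 594, 367, 660 and 330 times. The share of the 60 nt exon was 0.614 and 0.643 with RBFOXi and 0.620 and 0.691 with SCRM. The groups overlapped, with means of 0.629 ± 0.0200 and 0.656 ± 0.0502 (SD, n = 2 each) and a difference of -0.0270, which was 0.00850 without SCRM replicate 2. The junction leaving out both exons had 4, 0, 0 and 2 reads, and PSI in the table of skipped exons was at least 0.984 for either exon in each library.

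P4HA2 had 1 further alternative exon, of 136 nt, at chr5:131562779-131562914, near the 5′ end of the gene. It was in 4 of 15 coding transcripts and non-coding in all of them. It was counted 3612 and 3299 times with RBFOXi and 1452 and 3207 times with SCRM, against 4350, 3027, 2143 and 3502 skipping reads. PSI was 0.227 and 0.279 with RBFOXi and 0.194 and 0.245 with SCRM, so that the groups overlapped, with a difference of 0.0337. In 2 other events of the exon that differed in the exon joined to it, PSI was above 0.99 in each library, on competing junctions with at most 3 reads, and in 1 of them the RBFOXi libraries, at 0.999 and 1, lay above the SCRM libraries, at 0.997 and 0.996. In the table of mutually exclusive exons its share was 0.161 and 0.196 against 0.131 and 0.175 beside the next exon of 100 nt, and 0.327 and 0.381 against 0.255 and 0.355 beside the following exon of 97 nt, with overlapping groups in both. Another pairing put it at 0.999 and 1 with RBFOXi and at 0.999 and 0.998 with SCRM, without overlap.

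Most exons of the 3 genes were near full inclusion in the table of skipped exons. The 50 skipped exon events covered 37 distinct exons, and 23 events on 19 exons passed the count filter. Among the 23, 20 had a mean PSI of 0.95 or more, with 0.939 as the lowest value in any library and 0.0341 as the largest absolute difference. These 20 include 4 events of the exons of the P4HA1 and P4HA2 pairs, which are alternative within their pair. PSI between 0.05 and 0.95 was found for 2, the 63 nt exon of PLOD2 and the 136 nt exon of P4HA2. The last was a 93 nt exon of P4HA1 at chr10:74837479-74837571, with PSI of 0.0447 and 0.0221 with RBFOXi and 0.0486 and 0.0286 with SCRM, which had no exact match in a coding transcript of P4HA1. The 27 events that did not pass had at most 3 skipping reads over the 4 libraries together, and 4 of them had fewer than 5 counts in a library.

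Of the 23 skipped exon events that entered the fit, 1 passed the thresholds of limma (adjusted p under 0.05 and an absolute difference of at least 0.1), the 63 nt exon of PLOD2, beside 0.0682% of all skipped exon events tested (27 events, and 0.053% in the lower direction), of which 3.61% had an unadjusted p under 0.05. As the genes were chosen by these values, nothing is read from this count. The exon no longer passed with a pseudocount of 0.1, where 1 skipped exon event of all genes passed, nor without SCRM replicate 1 or without SCRM replicate 2, where the difference was -0.233 and -0.255. Of the 18 pairs, 0 were called, beside 0% of all pairs tested (0 of 26176, with 395, 1.51%, at an unadjusted p under 0.05 and 2 called by a quasi-binomial F test). The 2 groups did not overlap in 10 tested skipped exon events with lower PSI under RBFOXi, of which 8 were in PLOD2, and in 4 with higher PSI. Over all skipped exon events tested the corresponding shares were 16.5% and 14.3%, 30.8% in all. Apart from the 63 nt exon these events rested on rare skipping reads, and nothing is read from their number. Among the 18 pairs 2 were lower and 2 higher without overlap, beside 8.42% and 16% of all pairs tested.

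The tables of skipped and of mutually exclusive exons drew on the same reads. The 18 pairs gave 36 exon readouts, 12 of which had a skipped exon event with the same flanking exons, and in all 12 the counts of the exon were equal in the 4 libraries (difference 0). The tables therefore differed in what an exon was compared with. In 13 of the 18 pairs both exons had a mean PSI of 0.95 or more as skipped exons, and in 11 of these 13 the share lay between 0.05 and 0.95 in each library. The pairs of P4HA1 and P4HA2 with similar neighbouring exons were among the 11, and so were consecutive exons that were both present in nearly every transcript, such as the 102 and 126 nt exons of PLOD2. Among further consecutive exons, the 69 nt exon of P4HA1 against the 97 nt exon gave 0.381 and 0.379 with RBFOXi and 0.338 and 0.398 with SCRM. The 108 nt exon of P4HA1 against a different 97 nt exon, at chr10:74833489-74833585, gave 0.575 and 0.570 with RBFOXi and 0.550 and 0.597 with SCRM. In P4HA2 the 152 nt exon against the 138 nt exon gave 0.502 and 0.509 with RBFOXi and 0.475 and 0.503 with SCRM. The 66 nt exon of P4HA2 is the 3′ exon of its pair, with a mean share of 0.358 there, and so is itself alternative. Against the 69 nt exon it gave 0.0749 and 0.0746 with RBFOXi and 0.0770 and 0.0653 with SCRM. The groups overlapped in these 4 pairs. The 3 pairs not named so far lay near 0 or 1. Shares were 0.0114 to 0.0409 for the 100 nt exon of P4HA1 against its 54 nt exon. They were 0.989 to 0.993 for the 177 nt exon of P4HA2 against its 71 nt exon. A 100 nt exon of P4HA2 at chr5:131539441-131539540, other than the one paired with the 136 nt exon, had 0.996 to 1 against the 54 nt exon.

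**Figure D3:**
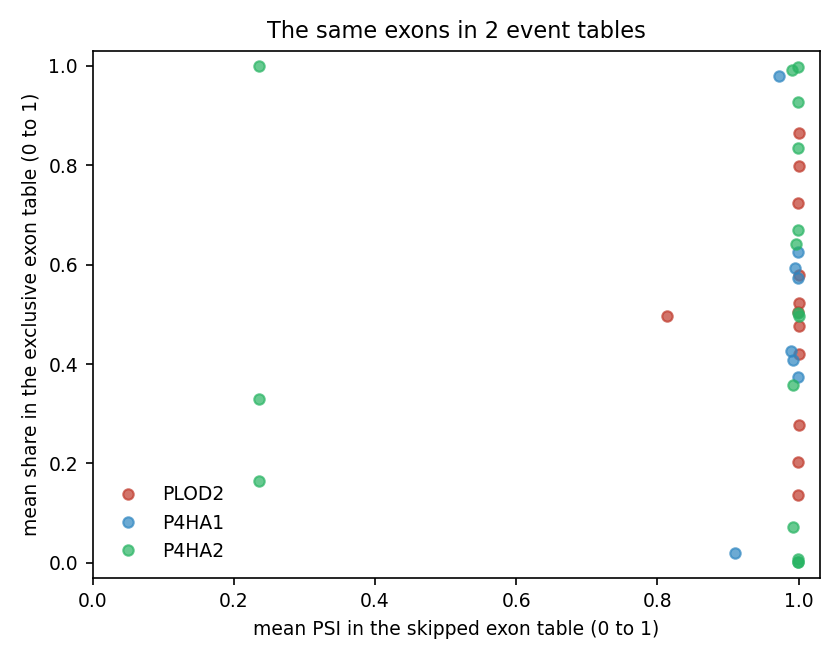
Mean over the 4 libraries of the share in the table of mutually exclusive exons (y axis, 0 to 1) against the mean PSI of the same exon in the table of skipped exons (x axis, 0 to 1), with 1 point for each of the 36 exon readouts and colours for the genes. Points at PSI near 1 spread over the whole range of shares, and the 63 nt exon of PLOD2 lies alone at a PSI near 0.814.

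SCRM replicate 1 differed from the other libraries along the genes. The ratio of its inclusion counts to those of SCRM replicate 2 was 0.466 at the counted exon of PLOD2 nearest to the 3′ end and 0.128 at the one nearest to the 5′ end. It was 1.16 and 0.475 at these ends of P4HA1, and 1.71 and 0.453 at those of P4HA2. The 5′ value of P4HA1 was that of the rare 93 nt exon, with 38 and 80 counts in SCRM replicates 1 and 2. The 108 nt exon beside it gave 0.313. In P4HA2 the 5′ value was that of the alternative 136 nt exon, and the 100 nt exon beside it gave 0.597. The ratio of RBFOXi replicate 1 to RBFOXi replicate 2 lay between 1.15 and 1.40 in PLOD2 and between 1.09 and 1.62 in P4HA2. In P4HA1 it lay between 1.38 and 3.23, with the highest value at the rare 93 nt exon. Over the 925 genes with at least 10 counted exons, the ratio at the 5′ end divided by that at the 3′ end had a median of 0.261 for the SCRM replicates and was below 1 in 97.2% of genes, against 0.996 and 51.1% for the RBFOXi replicates. SCRM replicate 1 thus held fewer reads towards the 5′ ends. A pair compares counts at 2 places in the gene, and the part of this slope in the shares given above was not tested. With all 4 libraries 0 pairs of all genes were called. With 1 library left out, the count was 15 without RBFOXi replicate 1, 4 without RBFOXi replicate 2, 20 without SCRM replicate 1 and 1400 without SCRM replicate 2. In these fits the library left alone in its group was assumed to vary like the others. The difference without SCRM replicate 2 was -0.117 for the PLOD2 63 nt exon in its pair and -0.146 for the P4HA1 pair.

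**Figure D4:**
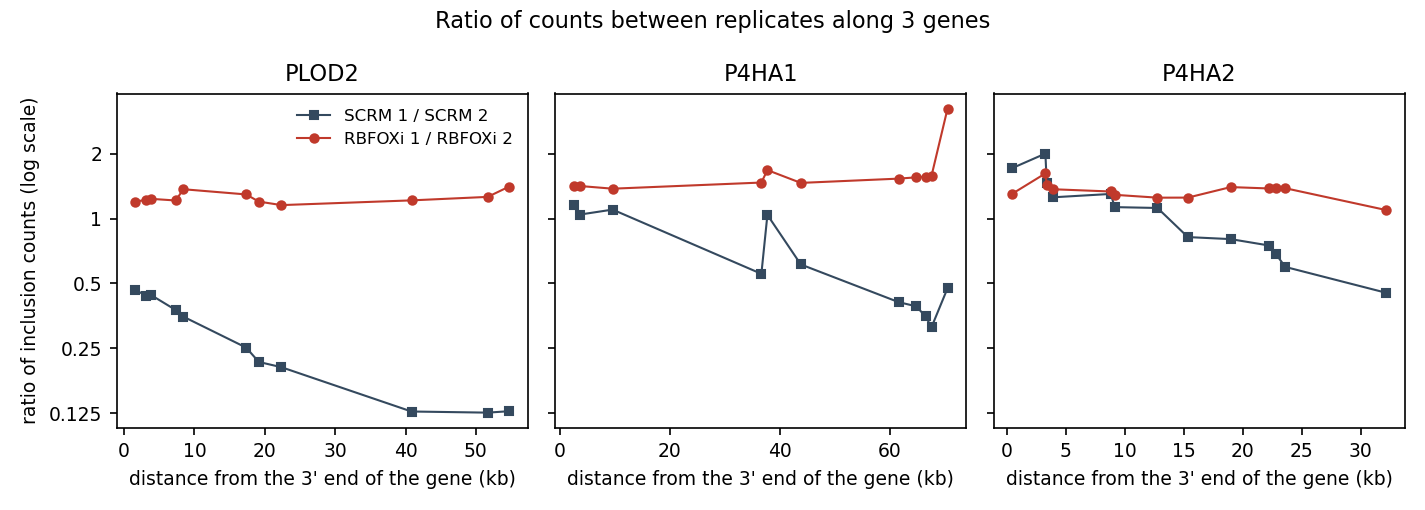
Ratio of inclusion counts between replicates (y axis, log scale) at each counted exon of PLOD2, P4HA1 and P4HA2 against the distance of the exon from the 3′ end of the gene (x axis, kb), with squares for SCRM 1 over SCRM 2 and circles for RBFOXi 1 over RBFOXi 2. The squares fall in PLOD2 from 0.466 to 0.128 towards the 5′ end, while the circles stay between 1.15 and 1.40.

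The letters TGCATG, the DNA form of the RBFOX motif, were searched on the strand of the gene in the introns beside the named exons. Within 300 nt of the PLOD2 63 nt exon there was 1 copy upstream, 126 nt from the exon, and 0 downstream. Over 30617 distinct tested exons, 8.47% had a copy in the 300 nt upstream and 8.73% in the 300 nt downstream. In the whole introns of PLOD2, 1191 nt upstream and 966 nt downstream, there was 1 copy on either side, the downstream one 848 nt from the exon. Windows of these lengths held a copy beside 27.4% of the tested exons upstream and 24.4% downstream. The end of the upstream intron and the surroundings of the downstream copy are shown with TGCATG in capitals, together with the start of the downstream intron, which holds none.
Upstream intron of PLOD2, last 140 nt before the exon (chr3:145795712-145795851, minus strand): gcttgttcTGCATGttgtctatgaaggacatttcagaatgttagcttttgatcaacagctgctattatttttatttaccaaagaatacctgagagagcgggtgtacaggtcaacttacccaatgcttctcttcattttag
Downstream intron of PLOD2, first 140 nt after the exon (chr3:145795509-145795648, minus strand): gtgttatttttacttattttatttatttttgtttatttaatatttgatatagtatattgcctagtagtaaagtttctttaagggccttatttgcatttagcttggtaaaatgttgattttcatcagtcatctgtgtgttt
Downstream intron of PLOD2, around the motif (chr3:145794776-145794821, minus strand): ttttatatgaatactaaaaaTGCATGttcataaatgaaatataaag
The shorter GCATG, which is contained in TGCATG, also stood 161 nt downstream of the PLOD2 exon, and 25.0% and 25.4% of tested exons had it upstream and downstream within 300 nt. Beside the exons of the P4HA1 and P4HA2 pairs and the 136 nt exon of P4HA2 there were 0 copies of TGCATG within 300 nt, and GCATG stood 136 nt downstream of the 5′ exon of P4HA1. The 300 nt beside the P4HA2 pair run across the neighbouring exon, because the intron between the exons has 49 nt. The reverse complement CATGCA was not found in the windows of these exons, beside 6.26% and 6.85% of tested exons. A match of letters is a description, and binding was not measured.

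Other genes of collagen modification, folding and cross-linking gave 0 calls with all 4 libraries and the condition alone, 1 with the replicate block, 1 without RBFOXi replicate 1 and 3 without SCRM replicate 2. The list of 37 symbols, which included older names, had 207 tested events in 24 genes, and limma called 0 of them lower and 0 higher, the quasi-binomial F test called 0, and 9 had an unadjusted p under 0.05 (4 lower and 5 higher), beside 2.81% of all 72115 tested events. The median absolute difference was 0.00482, against 0.0125 over all tested events, and the median difference was 0.000952. These medians were not matched for counts, inclusion level or event type. The largest absolute difference on the list was that of an event of P4HTM, at -0.138. The lysyl hydroxylases PLOD1 and PLOD3 had 22 and 7 tested events with differences from -0.0107 to 0.0313 and from -0.00465 to 0.00590. P4HB, the partner of both alpha subunits, had 7, from -0.000692 to 0.0445. The lowest unadjusted p among the skipped exons of the list belonged to a 92 nt exon of FKBP14, a prolyl isomerase of the endoplasmic reticulum, at chr7:30059829-30059920. Its PSI was 0.0652 and 0.188 with RBFOXi and 0.0361 and 0.0121 with SCRM, a difference of 0.103 on 87 to 296 counts per library (limma adjusted p = 0.954). Next came a 134 nt exon of P4HB, with 0.9993 and 0.9990 against 0.9999 and 0.9998, a difference of -0.000692 (limma adjusted p = 1.0). A 124 nt exon of BMP1, a protease that trims procollagen, had 0.101 and 0.177 against 0.0578 and 0.0696, a difference of 0.0755 (limma adjusted p = 1.0).

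Of the markers checked for glioma and mesenchymal lines, VIM, FN1, CD44 and NES had events. Counts per library were 128266 to 185009 in the largest event of VIM and 179 to 432 in that of NES. CHI3L1, SOX2, S100B and GFAP, from the same list of glioma and mesenchymal markers, had 0 events. PTPRC, PECAM1 and EPCAM, markers of leukocytes, endothelium and epithelium, also had 0. The tables list only genes with an alternative event, so 0 events gives no level. Of the RBFOX genes, RBFOX2 had 17 events, the largest with 351 counts in SCRM replicate 1 and 1335 to 2392 in the other libraries, and RBFOX1 and RBFOX3 had 0.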

How the data were processed

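RNA-seq covered 4 libraries of U87MG cells, 2 with RBFOXi and 2 with SCRM. The authors aligned total RNA reads to hg19, keeping unique alignments, with STAR 2.4.2a, and events of the UCSC known genes were counted with rMATS. The deposited read counts per event are not normalized and stand in pairs, 1 per replicate. The deposited p-value and FDR of each event and the inclusion level difference, a score, are the authors' own comparison and were not used. PSI differed from the deposited values by at most 0.0005. Counts summed over skipped exon events came to 114415530 to 136097319 per library, with a read counted in each event it fits, so that counts are not independent molecules.

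Events needed 5 counts in every library, a mean of 20 and 4 counts of each form. The log2 odds of inclusion (pseudocount 0.5) were modelled by limma 3.58.1 under R 4.3.3 across all tested events of a type, with condition as the only term, and adjusted by Benjamini-Hochberg within the type. The fit was tested on simulated data. The planned count model was not run, and a quasi-binomial F test on the counts split by replicate took its place. Other alternatives covered the pseudocount, the filter, the replicate block, the definition of PSI and each library left out.

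Named were the 63 nt exon of PLOD2, neighbouring pairs of P4HA1 and P4HA2, events with mean PSI between 0.05 and 0.95, and the skipped exons with the lowest p of the collagen list. The members and lists were chosen with earlier results of these data known. Sequences came from GRCh37, exons from GENCODE 44 lifted to it. Python 3.11.15, numpy 2.4.6 and pandas 2.3.3 were used.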

Additional observations from a re-analysis of the deposited data

How the results depend on the processing

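For the PLOD2 63 nt exon the difference was -0.277 to -0.212 when 1 library was left out and -0.205 as a plain share of counts. It was -0.305 from raw reads on a single inclusion junction and the skipping junction, without effective lengths (chosen after seeing the data). The pseudocount, the filter, the replicate block and the quasi-binomial F test do not enter this difference. As the groups did not overlap, leaving out 1 library could not change its sign. The exon passed the thresholds of limma except with a pseudocount of 0.1, without SCRM replicate 1 and without SCRM replicate 2. Its skipping together with the downstream exon went from -0.00974 to -0.00678 as a plain share. As 1 of a pair with the 114 nt exon it differed by -0.160 to -0.0970 with 1 library left out. The pairs of P4HA1 and P4HA2 crossed 0, at -0.146 to 0.00800 and -0.0625 to 0.00850. The count of skipped exons called was 27, against 1 with a pseudocount of 0.1, 44 with the loosest filter, 119 with the replicate block, 58 by the quasi-binomial F test (added after seeing the data) and 1 to 69 with 1 library left out. The count of pairs called was 0, against 2 with a pseudocount of 1, 77 with the replicate block, 2 by the quasi-binomial F test and 4 to 1400 with 1 library left out. Of the other 3 event types 0 were called, against 2 by the quasi-binomial F test and 1 to 12 with 1 library left out. On the collagen list 0 were called, against 1 with the replicate block and 0 to 3 with 1 library left out. The cause was not tested. The labels do not say what a replicate number shares, and same-numbered libraries correlated in their deviations by 0.0944 over skipped exons and 0.0881 over pairs. With 2 libraries a group, a call rests on little information about the spread, and the low count of calls does not show that other exons were unchanged. The planned count model was not run.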
